A study of Mus musculus with 4 samples.

Results

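This report describes 10 genes that brain astrocytes use when they react to injury, when they contact blood vessels, or when they belong to one brain region rather than another. They are Gfap, Vim, Serpina3n and C4b (reactivity), Aqp4, Gja1 and S100b (water channel, gap junction and calcium binding), and Agt, Itih3 and Aldh1a1 (secreted or metabolic proteins that differ between astrocyte regions). The members were listed by symbol, and each symbol matched 1 row of the 32285 genes measured. The members were chosen by symbol with their levels across cell classes and libraries (UMIs per nucleus class) already known, so those levels are given as a description with no test. The 2 EV groups were compared by a fit over all genes, and because the choice was made with these data known, no difference of a member counts as independent evidence.

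The data are single-nucleus RNA counts from the brains of female 5XFAD mice of 7 to 10 weeks, which carry human amyloid precursor protein and presenilin transgenes driven by the neuronal Thy1 promoter. All mice received intravenous extracellular vesicles (EVs), in 100 µL per mouse, that had been rebuilt from adipocyte EV lipids and coupled to transferrin. The 2 groups differed in the phosphatidylethanolamine (PE) content of those EVs, PE-low or PE-high. Each group had 2 libraries and each library pooled 2 mice, so n = 2 against 2 throughout, the spread between mice within a library was not measured, and no uninjected or wild-type library was analysed here.

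Astrocytes supply neurons with metabolites, clear glutamate and potassium, and wrap blood vessels with endfeet that are rich in the water channel aquaporin-4. After injury, and around amyloid plaques, they enlarge their intermediate filament skeleton (GFAP and vimentin) and make acute phase and complement proteins. Astrocytes also differ by region: those of the thalamus, hypothalamus, midbrain and hindbrain express other transporters and secreted proteins than those of the cortex and striatum, and angiotensinogen is a classic example of a gene that is high in the former.

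Between 29472021 and 43272337 UMIs (distinct RNA molecules) were counted per library, of which 49.1% to 49.6% lay outside barcodes called as nuclei. The main set applied the limits of the study's methods (between 200 and 2500 genes and no more than 3% mitochondrial UMIs per nucleus) and held 1457 to 3457 nuclei per library. That limit leaves fewer nuclei than the study states, so each value is also given for a wider set with at most 15% mitochondrial UMIs, which held 7599 to 10074 nuclei in 3 libraries and 10292 in PE-low replicate 1. Libraries shared 0 to 4 cell barcodes in the main set and 19 to 35 in the wider one. A pair of libraries stood apart. PE-low replicate 2 held more nuclei of subcortical type: the inhibitory cluster led by 6330411D24Rik, Zfhx3 and Baiap3 had 473 of its nuclei, against 107, 57 and 260 in PE-low replicate 1 and PE-high replicates 1 and 2. The endothelial nuclei of PE-low replicate 1 formed clusters of their own at the wider limit, while those of the other 3 libraries shared a cluster led by Cxcl10, Gbp5, Rsad2, Iigp1 and Ifit1.

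Astrocyte-like nuclei were named from 15 other genes (among them Slc1a2, Gpc5 and Ntsr2), and no member took part in the clustering. The main set held 100 and 196 of them in the PE-low libraries and 44 and 134 in the PE-high libraries. The wider set held 849 and 666, and 899 and 747. Among the genes that named them, the glutamate transporter gene Slc1a2 stood at 5349 to 5915 CPM (UMIs of the gene per 1e6 UMIs of the same nuclei) in the wider set, and the proteoglycan gene Gpc5 at 5939 to 7808 CPM. The nuclei also carried other RNA. UMIs of at least 3 markers of another class were found in 26.5% and 32.4% of the PE-low and 16.4% and 16.2% of the PE-high astrocyte-like nuclei of the wider set. The main-set shares were 39% and 33.7%, and 50% and 29.9%. These nuclei were not thinned, so deeper nuclei can reach that count more readily. Their median UMIs in the wider set were 931 and 1166.5 with PE-low EVs and 699 and 695 with PE-high EVs. By CPM, general neuron markers there were 1945 and 1914 with PE-low EVs and 2387 and 2241 with PE-high EVs. Oligodendrocyte markers went the other way, at 1343 and 1557, and 926 and 1104 CPM. Part of the UMIs was estimated to come from free RNA, with the profile of near-empty barcodes (ranks 45000 to 90000 by UMIs). In the wider set this was 39.1% and 32.8% in PE-low replicates 1 and 2, and 46.4% and 41.0% in PE-high replicates 1 and 2. Main-set estimates were 26.9% and 27.6%, and 28.6% and 33.4%. Levels are compared below within a gene and never between genes, because the 3′ tags count each gene with its own efficiency.

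The 4 reactivity genes were scarce in astrocyte-like nuclei, and their levels overlapped between the groups. Gfap, the intermediate filament protein by which astrocytes are commonly stained (chromosome 11, 102887336 to 102900912, minus strand, mm10), gave 2 and 16 UMIs in the PE-low libraries and 0 and 4 in the PE-high libraries of the main set. Its level in the wider set was 42.3 and 72.3 CPM with PE-low EVs and 41.3 and 57.5 CPM with PE-high EVs. The highest library was PE-low replicate 2, and the other PE-low library lay next to the lowest PE-high one. The group means were 57.3 ± 21.2 and 49.4 ± 11.5 CPM (SD, n = 2 each), and the log2 difference, PE-high minus PE-low, was -0.20 (SE 0.29, adjusted p = 0.999, edgeR quasi-likelihood test).

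C4b, complement component 4B (chromosome 17, 34728380 to 34743882, minus strand), was the reactivity gene most restricted to astrocyte-like nuclei. Its wider-set levels lay within 17.1 to 18.1 CPM in all 4 libraries, on 11 to 17 UMIs each. The main set gave 0, 6, 0 and 2 UMIs, too few to show whether the level was even there. Pooled over libraries, that was 17.8 CPM in astrocyte-like nuclei against 0.418 CPM in neurons, or 42.6 times as much. Fibroblast-like nuclei came next at 16.6 CPM on only 2 UMIs, and every remaining class stood at 3.65 CPM or less. The log2 difference between groups was 0.0027 (SE 0.38), with a 95% interval of -0.75 to 0.75, so a difference within that interval was not detectable at this depth. Reads of C4b can be confused with those of its near copy C4a, which had 3 to 12 UMIs per library outside nuclei, where C4b had 58 to 101.

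Vim, vimentin (chromosome 2, 13573927 to 13582826, plus strand), had 0, 3, 0 and 1 UMIs in the main astrocyte-like nuclei of PE-low replicates 1 and 2 and PE-high replicates 1 and 2. It had 6 to 10 UMIs per library in the wider set, or 8.45 to 11.1 CPM. Most vimentin RNA was elsewhere: endothelial-like nuclei stood at 268, 194, 197 and 164 CPM in the same order of libraries, and ependymal-like nuclei at 271 CPM pooled over 25 UMIs. Astrocyte-like nuclei held 7.43% of all Vim UMIs found in named classes. Serpina3n, a secreted protease inhibitor of the acute phase (chromosome 12, 104406729 to 104414329, plus strand), had no UMI in the main astrocyte-like nuclei of any library. A count of 0 leaves room for up to 11.98 to 45.82 CPM there (exact Poisson 95% upper limits). The wider set gave 5, 2, 2 and 3 UMIs, which is 3.68 CPM pooled and close to the 3.85 CPM of RNA outside nuclei. Neither gene passed the filter on low counts in astrocyte-like nuclei, so neither was tested there.

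**Figure D1:**
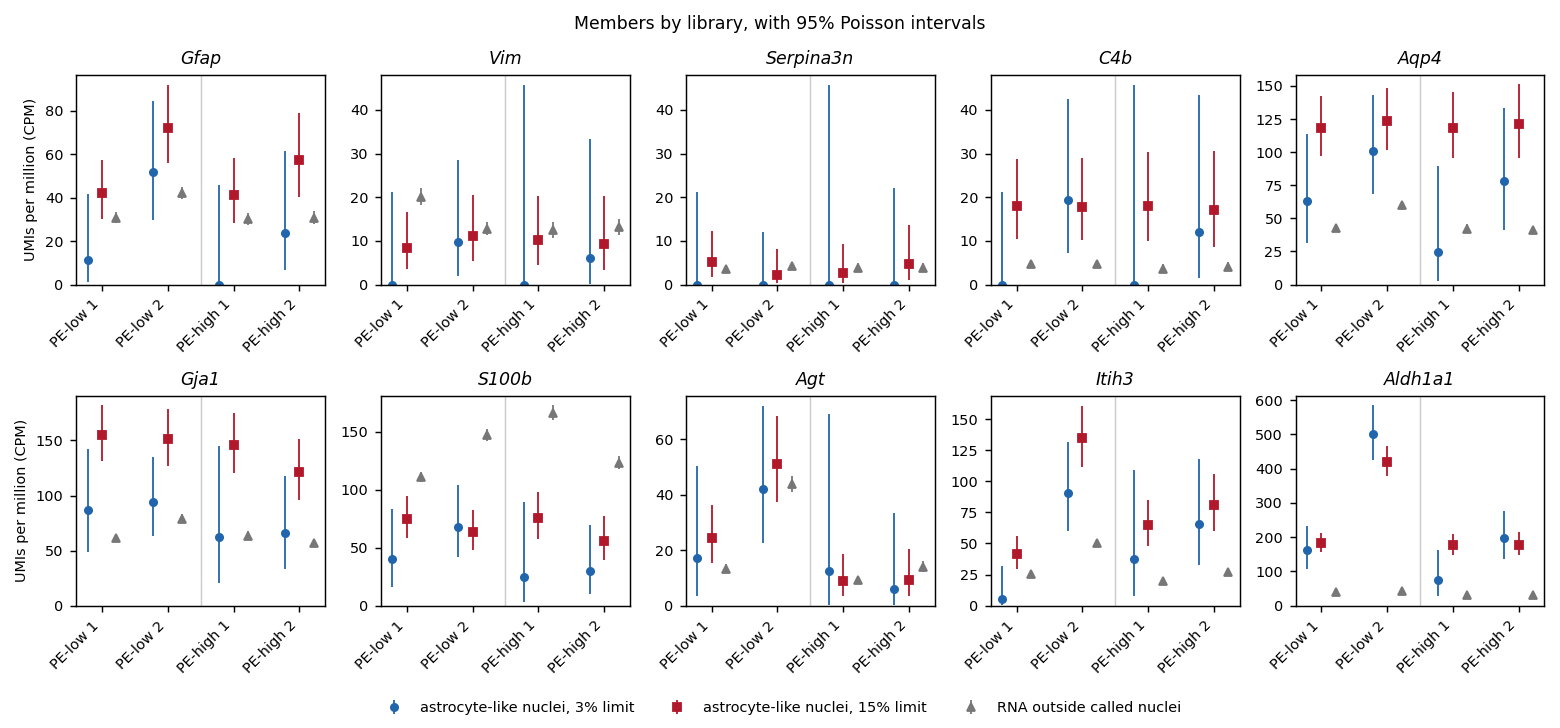
Levels of the 10 members by library (y axis, CPM on a linear scale from 0; error bars are exact Poisson 95% intervals, which cover counting error only) in astrocyte-like nuclei of the main (circles, 3% limit) and the wider set (squares, 15% limit) and in RNA outside nuclei (triangles). Agt and Aldh1a1 are highest in PE-low replicate 2, at 51.2 and 421 CPM in the wider set. In that set Aqp4 and C4b lie level across the 4 libraries. In the main set they do not, at 24.8 to 101 CPM for Aqp4 and 0 to 19.5 CPM for C4b.

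Aqp4, Gja1 and S100b passed the filter on low counts in the wider set, and none of them passed the test. Aqp4, the endfoot water channel (chromosome 18), gave 118, 124, 119 and 121 CPM in the wider set for PE-low replicates 1 and 2 and PE-high replicates 1 and 2. The 4 libraries were thus within a few percent of each other. The log2 difference was 0.01 (SE 0.20, 95% interval -0.38 to 0.40). In the main set the same gene had 11, 31, 2 and 13 UMIs and 63.4, 101, 24.8 and 78.0 CPM, with a log2 difference of -0.51 (SE 0.49, adjusted p = 0.868), so the direction was not shared by the 2 sets.

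Gja1, connexin 43, the gap junction protein that couples astrocytes (chromosome 10, 56377330 to 56402513, plus strand), stood at 155 and 151 CPM with PE-low EVs and at 146 and 121 CPM with PE-high EVs in the wider set. Both PE-high libraries lay below both PE-low libraries, yet the log2 difference of -0.17 (SE 0.20, adjusted p = 0.999) was smaller than its error. The main set gave 86.4, 94.2, 62.1 and 66.0 CPM, again without overlap, and a log2 difference of -0.47 (SE 0.41, adjusted p = 0.848). S100b, a calcium-binding protein (chromosome 10, 76253853 to 76261159, plus strand), gave 75.0, 63.4, 76.1 and 55.9 CPM in the wider set, with the 2 groups interleaved. Its log2 difference was -0.03 (SE 0.23, 95% interval -0.49 to 0.43). It had 7, 21, 2 and 5 UMIs in the main set, or 40.3, 68.2, 24.8 and 29.98 CPM. Both PE-high libraries were below both PE-low libraries there, but the gene did not pass the filter on low counts and was not tested.

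The 3 regional genes differed most between libraries, and all 3 were highest in PE-low replicate 2. For Agt in the wider set, PE-low replicate 1 also stood above both PE-high libraries. Angiotensinogen, encoded by Agt (chromosome 8, 124556534 to 124569706, minus strand), is the precursor of the angiotensin peptides. It had 23 and 46 UMIs in the PE-low libraries of the wider set and 7 and 6 in the PE-high libraries. These counts were 24.3 CPM (95% Poisson interval 15.4 to 36.5) and 51.2 CPM (37.5 to 68.3) with PE-low EVs, and 9.03 CPM (3.63 to 18.6) and 9.32 CPM (3.42 to 20.3) with PE-high EVs. The lower PE-low level was over 2 times the higher PE-high level, which held for no other member in the wider set. The means were 37.7 ± 19.0 and 9.17 ± 0.206 CPM (SD, n = 2 each).

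The log2 difference of Agt was -1.99 (SE 0.46, unadjusted p = 0.000403), which did not pass once adjusted over the 10010 genes tested (adjusted p = 0.807, edgeR). Without PE-low replicate 1 it was -2.46 (adjusted p = 3.51e-06), and without PE-low replicate 2 it was -1.36 (adjusted p = 0.568). Here and below, leaving out a PE-low library leaves that group with 1 library, which is assumed to vary like the PE-high pair. Over all genes, 2.54% and 0.463% were called in those 2 fits. Agt in the main set had 3, 13, 1 and 1 UMIs, or 17.3, 42.2, 12.4 and 5.996 CPM, again highest in PE-low replicate 2, and it did not pass the filter.

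Itih3, a heavy chain of the inter-alpha-trypsin inhibitors that bind hyaluronan (chromosome 14, 30908572 to 30923760, minus strand), gave 41.2 and 135 CPM with PE-low EVs and 64.5 and 80.8 CPM with PE-high EVs in the wider set. The lowest and the highest library were both PE-low. The log2 difference of -0.26 (SE 0.37, adjusted p = 0.999) turned to 0.83 (adjusted p = 0.260) without PE-low replicate 2 and became -0.90 (adjusted p = 0.0184) without PE-low replicate 1. The main set gave 1, 28, 3 and 11 UMIs, or 5.76, 90.9, 37.3 and 66.0 CPM, and a log2 difference of -0.02 (SE 0.73).

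Aldh1a1, a retinaldehyde dehydrogenase that makes retinoic acid (chromosome 19, 20492715 to 20643465, plus strand), overlapped between the groups in the main set. Its levels there were 161 and 500 CPM with PE-low EVs and 74.5 and 198 CPM with PE-high EVs, on 28, 154, 6 and 33 UMIs. PE-high replicate 2 lay above PE-low replicate 1. Levels in the wider set were 183 CPM (95% Poisson interval 157 to 212), 421 CPM (379 to 465), 177 CPM (148 to 209) and 179 CPM (148 to 214). There 3 libraries had the same level within counting error and PE-low replicate 2 stood alone above them.

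The log2 difference of Aldh1a1 was -1.18 (SE 0.52, unadjusted p = 0.0425, adjusted p = 0.623) in the main set and -0.74 (SE 0.28, unadjusted p = 0.0177, adjusted p = 0.931) in the wider one. Without PE-low replicate 2 these became -0.10 (adjusted p = 0.994) and -0.01 (adjusted p = 0.997), and without PE-low replicate 1 they became -1.75 (adjusted p = 0.0331) and -1.25 (adjusted p = 8.58e-08). The size of the difference thus depended on which PE-low library was kept. Of all genes tested in the main set, 1.26% were called without PE-low replicate 1 and 0.0688% without PE-low replicate 2.

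**Figure D2:**
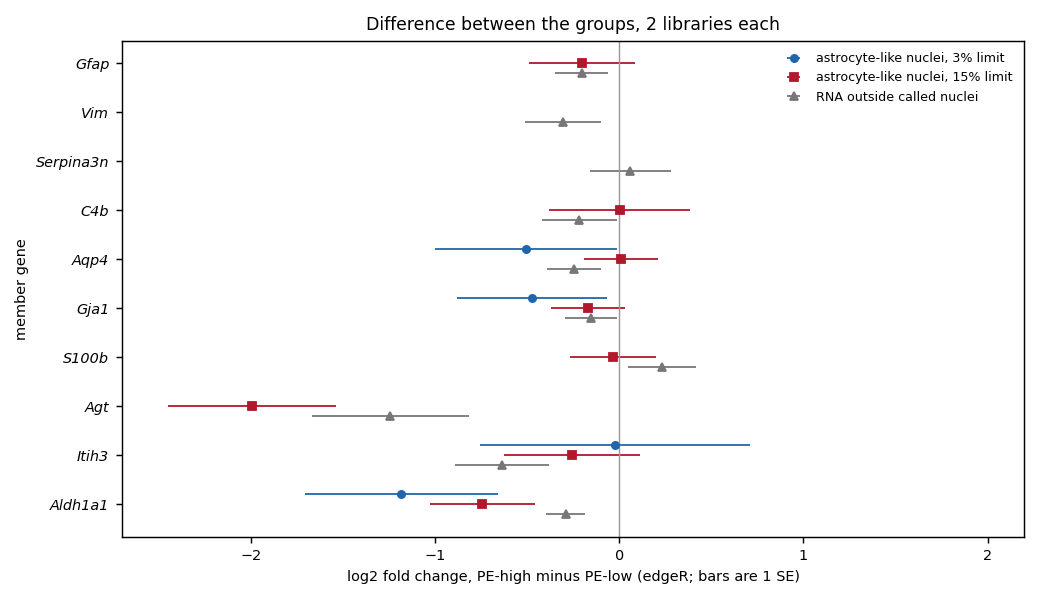
Log2 difference (PE-high minus PE-low, x axis) of each tested member in astrocyte-like nuclei of the main and the wider set and in RNA outside nuclei; points are edgeR estimates and bars 1 SE. Agt and Aldh1a1 lie below 0 by more than 2 SE in the wider set, at -1.99 and -0.74, and none of the members passed the adjusted threshold.

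Read against all genes, none of the members was called in any of the 3 fits, at an adjusted p under 0.1, and neither was any other gene. In the main astrocyte-like nuclei 4 of the 10 members were tested, all 4 had negative log2 differences, and their median was -0.49 against -0.01 over 3729 genes. In the wider set 8 were tested, 6 of them negative, with a median of -0.19 against 0.00110 over 10010 genes. The share of genes called was 0% in both, by edgeR. At an unadjusted p under 0.05 edgeR counted 291 and 498 genes, and DESeq2 called 1 and 0 at the adjusted threshold. The makeup of the astrocyte-like nuclei also differed between the libraries, as their sub-clusters show.

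Sub-clusters of the 3161 astrocyte-like nuclei of the wider set, made without the members, showed where the regional genes sat. A sub-cluster of 433 nuclei (13.7%), with the enzyme gene Etnppl among its leading genes, had 1140 CPM of a list of genes of astrocytes outside the telencephalon (among them the transporters Slc6a11 and Slc6a9 and the matrix protein gene Sparc), against 170 to 335 CPM in the other 3. Its pooled Agt level was 115 CPM against 8.93 to 15.2 CPM in the others, and its Itih3 level was 358 CPM against 27.4 to 54.5 CPM. Aldh1a1 was less restricted, at a pooled 384 CPM there and 332, 192 and 116 CPM in the others. By library its order varied between that sub-cluster and the one of 1142 nuclei. It was lower in the former in PE-low replicates 1 and 2 and PE-high replicate 2 (170, 463 and 177 against 256, 533 and 240 CPM). In PE-high replicate 1 it was higher there (428 against 200 CPM). These levels describe clusters of the same nuclei and were not tested.

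That sub-cluster was not shared evenly by the libraries. It made up 35.4% of the astrocyte-like nuclei of PE-low replicate 2 (236 nuclei), and 6.71%, 6.56% and 10.8% in PE-low replicate 1 and PE-high replicates 1 and 2 (57, 59 and 81 nuclei). Within it, Itih3 stood at 321 and 340 CPM with PE-low EVs and at 428 and 426 CPM with PE-high EVs, so its order between groups was opposite to that over all astrocyte-like nuclei. Agt within it was 189 and 123 CPM with PE-low EVs, on 10 and 33 UMIs, and 23.8 and 70.9 CPM with PE-high EVs, on 1 and 4 UMIs. Both PE-high libraries remained below both PE-low libraries there, on those few UMIs.

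With the sub-cluster left out, which was decided after the data were seen, 34 UMIs of Agt remained and the gene no longer passed the filter. Itih3 then had a log2 difference of 0.40 (SE 0.33), while Aldh1a1 stayed at -0.75 (SE 0.28, adjusted p = 0.999). Aldh1a1 was also highest in PE-low replicate 2 within the other large sub-clusters: it stood at 256, 533, 200.3 and 240.1 CPM in the second and at 178, 342, 179 and 162 CPM in the first, for PE-low replicates 1 and 2 and PE-high replicates 1 and 2. Whether the brain sections of the libraries held different regions is not given in the sources used here, and regional makeup and EV treatment cannot be told apart with 2 libraries per group.

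**Figure D3:**
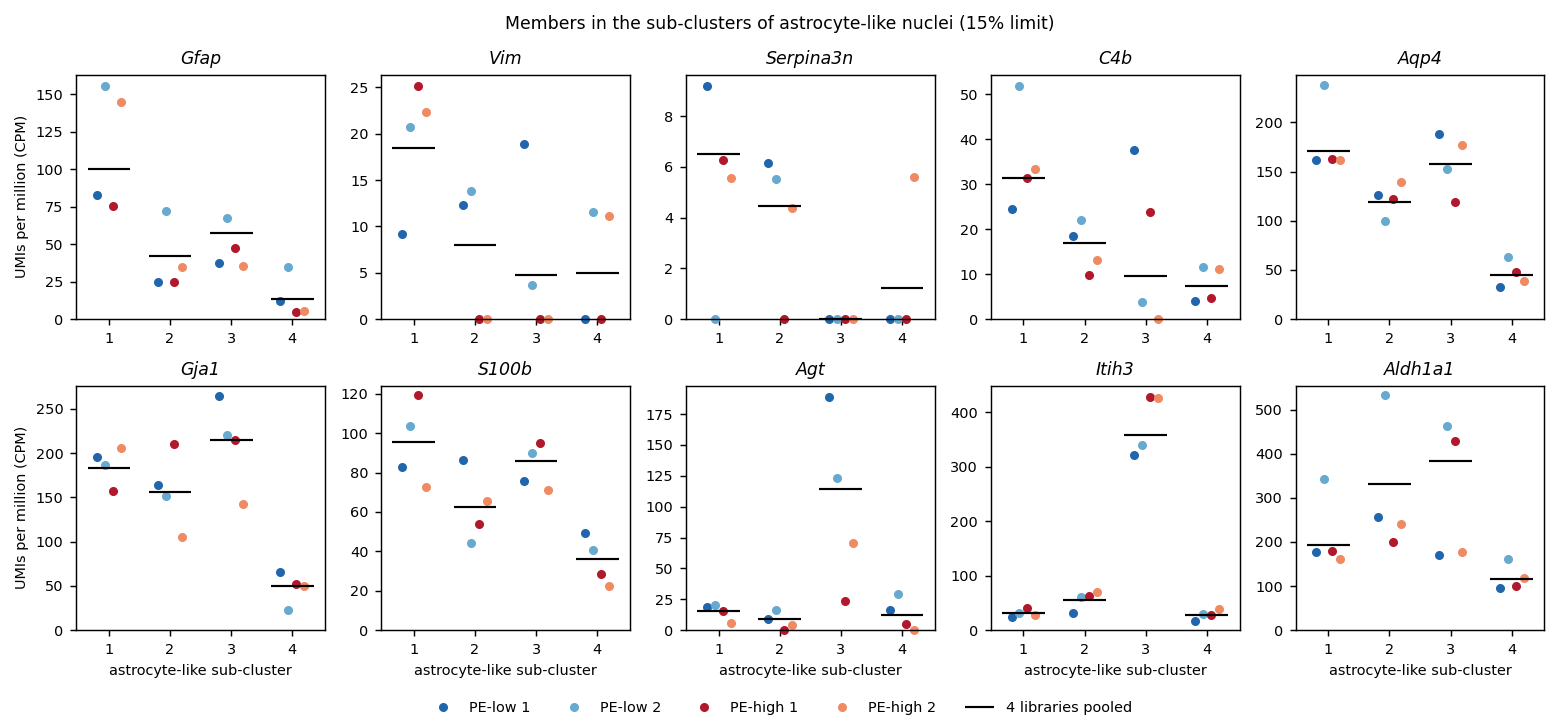
Level of each member (y axis, CPM, linear from 0) in the 4 astrocyte sub-clusters of the wider set, numbered by size; points are libraries and bars the 4 libraries pooled. Sub-cluster 3, the one highest in genes of astrocytes outside the telencephalon, has the highest Agt, Itih3, Aldh1a1 and Gja1 levels, and sub-cluster 1 has the highest Gfap, Vim, C4b, Aqp4 and S100b levels.

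The reactivity genes were distributed in another way. The largest sub-cluster, 1254 nuclei or 39.7%, had the highest Gfap (99.9 CPM against 13.7 to 57.3 CPM), the highest Vim (18.5 CPM against 4.77 to 8.03 CPM) and the highest C4b (31.5 CPM against 7.46 to 17.0 CPM). It held 45.7%, 15.5%, 53.3% and 38.0% of the astrocyte-like nuclei in PE-low replicates 1 and 2 and PE-high replicates 1 and 2. Gfap within it was 82.7 and 156 CPM with PE-low EVs and 75.4 and 145 CPM with PE-high EVs, again overlapping between the groups. The smallest sub-cluster, 332 nuclei, carried 4673 CPM of neuron markers against 1057 to 1447 CPM in the others, and had the lowest levels of Gfap, C4b, Aqp4, Gja1, S100b, Itih3 and Aldh1a1.

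Agt and Itih3 were the most alike pair of members over all classes: the Pearson correlation of their log2(CPM + 10) over 42 sums of a class in a library (12 classes, which share libraries and depth) was 0.752, given as a description. Because these 2 genes move together, the 250 bases before their starts are shown, from the RefSeq annotation of GRCm38.p6, for chr8:124569707-124569956 and chr14:30923588-30923837, both on the minus strand and written 5′ to 3′. The RefSeq start of Itih3 lies inside the gene as the annotation used for the positions above has it, so its window overlaps that gene model. Capitals mark TATAAA, a core promoter motif, and TTCNNNGAA, a palindrome bound by STAT factors, searched on both strands.
Agt: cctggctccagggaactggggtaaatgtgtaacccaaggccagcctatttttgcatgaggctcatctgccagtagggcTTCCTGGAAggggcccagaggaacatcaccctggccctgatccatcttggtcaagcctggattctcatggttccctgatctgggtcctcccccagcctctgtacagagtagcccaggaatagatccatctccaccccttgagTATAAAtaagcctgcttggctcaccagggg
Itih3: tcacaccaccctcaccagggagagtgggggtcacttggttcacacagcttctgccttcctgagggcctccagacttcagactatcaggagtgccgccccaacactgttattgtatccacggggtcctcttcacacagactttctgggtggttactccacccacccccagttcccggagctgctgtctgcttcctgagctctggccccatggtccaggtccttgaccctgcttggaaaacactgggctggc

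The Agt window held TATAAA beginning 30 bases before the start and TTCNNNGAA at 172 to 164 bases before it. The Itih3 window held neither. Over 32851 promoters of the same length, 12.4% had TATAAA and 7.02% had TTCNNNGAA, and of the 8 members present in the table only Agt had the latter.

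Across the 12 named classes of the wider set, 4 members were highest in astrocyte-like nuclei and the other 6 were higher in at least 1 other class. Among the 8 classes of the main set, which lacked ependymal-like, fibroblast-like and endothelial-like nuclei, 7 members were highest in astrocyte-like nuclei (Gfap, C4b, Aqp4, Gja1, Agt, Itih3 and Aldh1a1). Pooled CPM was highest in astrocyte-like nuclei for C4b (above), Agt at 25.1 CPM, Itih3 at 80.3 CPM and Aldh1a1 at 246 CPM. The next class for Agt was endothelial-like nuclei at 12.9 CPM on 12 UMIs, for Itih3 oligodendrocyte-like nuclei at 22.5 CPM, and for Aldh1a1 fibroblast-like nuclei at 141 CPM on 17 UMIs. The fibroblast-like libraries ranged from 107 to 156 CPM for Aldh1a1, so that range lay below the 177 to 421 CPM of the astrocyte-like ones.

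Aqp4 and S100b were highest in ependymal-like nuclei, the ciliated cells that line the ventricles, at 250 CPM on 23 UMIs and 119 CPM on 11 UMIs. These classes held 6 to 20 nuclei per library, so the order above astrocytes rests on few counts, with library values of 0 to 383 CPM for Aqp4. Gja1 stood at 166 CPM in fibroblast-like nuclei (20 UMIs), 145 CPM in astrocyte-like, 130 CPM in ependymal-like (12 UMIs) and 93.8 CPM in endothelial-like nuclei, and the library ranges of these neighbours overlapped. Gfap in fibroblast-like nuclei, at 58.2 CPM on 7 UMIs, could not be separated from the 53.3 CPM of astrocyte-like nuclei.

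S100b was spread over several glial classes. Oligodendrocyte precursor-like nuclei had 79.1 to 119 CPM per library, oligodendrocyte-like nuclei 52.6 to 87.2 CPM and astrocyte-like nuclei 55.9 to 76.1 CPM, so the precursor-like range lay above the astrocyte-like one and the oligodendrocyte-like range overlapped both. Astrocyte-like nuclei exceeded neurons in S100b 2.92 times, against 4.23 times for Vim, 6.77 times for Serpina3n, 9.05 times for Agt, 11.7 times for Gfap, 16.5 times for Aqp4 and Gja1, 19.0 times for Itih3 and 20.8 times for Aldh1a1. The CPM of S100b in astrocyte-like nuclei was also below that in RNA outside nuclei, with a ratio of 0.5004.

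**Figure D4:**
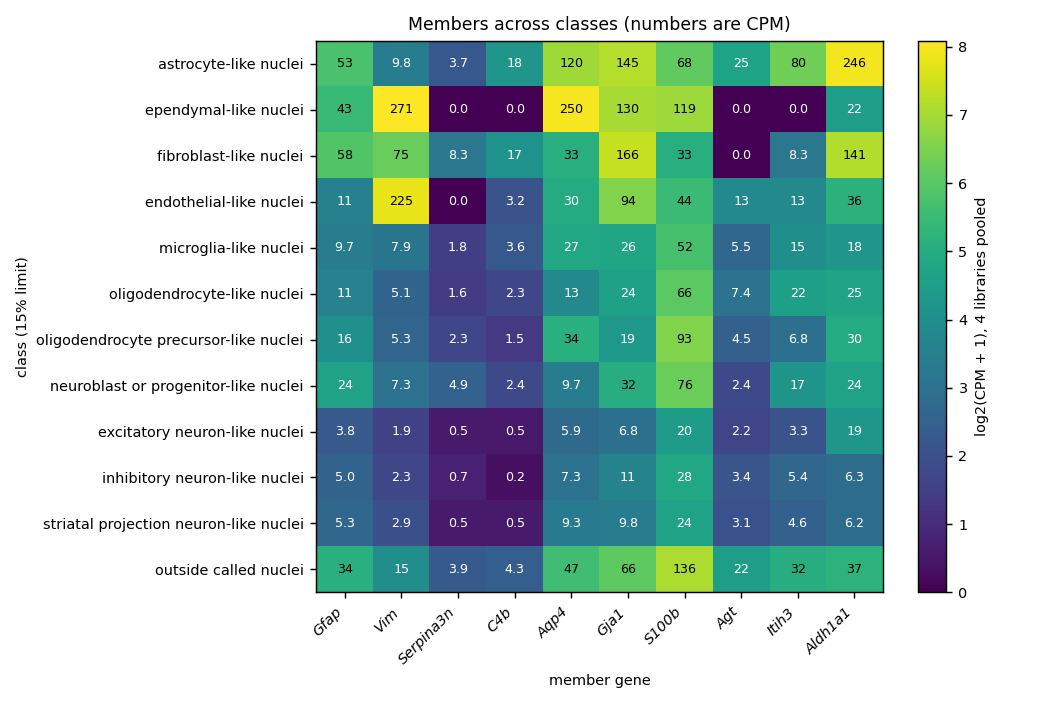
Level of each member by class in the wider set of nuclei and in RNA outside nuclei (rows), with genes in columns; each cell gives the CPM pooled over 4 libraries and its colour log2(CPM + 1); choroid plexus-like nuclei, 2 to 11 per library, are not drawn. Agt, Itih3, C4b and Aldh1a1 are highest in astrocyte-like nuclei, Vim is highest in ependymal-like and endothelial-like nuclei at 271 and 225 CPM, and S100b is spread over several glial classes.

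Within single nuclei the members were thinly detected. Each nucleus was thinned to 500 UMIs, which kept 2998 astrocyte-like and 8947 excitatory neuron-like nuclei and left out 163 astrocyte-like nuclei that were shallower. Gfap was then found in 2.64% of astrocyte-like nuclei and in 0.190% of excitatory neuron-like nuclei, which should lack it, and Aqp4 in 5.80% and 0.235%. Aldh1a1 was found in 10.7% and 0.849%, Itih3 in 4.10% and 0.145%, and Agt in 1.30% and 0.101%. Serpina3n stood at 0.167% and 0.0112%, which is too few UMIs to read.

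Before thinning the astrocyte shares were 4.02% for Gfap, 9.93% for Aqp4, 17.8% for Aldh1a1, 7.12% for Itih3 and 2.31% for Agt. Median UMIs per nucleus in the wider set were 695 to 1167 in astrocyte-like and 1884 to 3398 in excitatory neuron-like nuclei. Of the thinned astrocyte-like nuclei, 69.4% had no UMI of any member, 25.1% had 1 member and 2 nuclei had 4. A nucleus with Gfap had Aqp4 more often (18.6%, 13 nuclei) than one without Gfap (5.67%), which is a description over nuclei that share libraries.

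RNA outside nuclei gave deep sums in which all 10 members passed the filter. It was summed over all barcodes not called as nuclei. Besides free cytoplasmic RNA, it can thus hold nuclei too shallow to be called. The UMI cut for calling was higher in the PE-low libraries (573 and 839) than in the PE-high libraries (405.5 and 422). Fewer cells of a type and less RNA per cell cannot be told apart in these sums. The regional genes again followed PE-low replicate 2: Agt stood at 13.2 and 43.9 CPM with PE-low EVs and at 9.23 and 14.0 CPM with PE-high EVs, and Itih3 at 25.8 and 50.7, and 19.96 and 27.4 CPM. In both genes the 3 other libraries overlapped between groups. Aldh1a1 was 39.2 and 41.4 CPM with PE-low EVs and 30.9 and 32.4 CPM with PE-high EVs, so its groups did not overlap.

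The log2 differences outside nuclei were -1.24 (SE 0.43, unadjusted p = 0.0159) for Agt, -0.64 (SE 0.25, unadjusted p = 0.0313) for Itih3 and -0.29 (SE 0.11, unadjusted p = 0.0217) for Aldh1a1. None passed over the 16523 genes tested (adjusted p of 0.9751, 0.9898 and 0.9751, edgeR), where 0% of genes were called, 784 had an unadjusted p under 0.05 and DESeq2 called 28. The other 7 members had differences of -0.31 to 0.23, and the median of all 10 was -0.23 against 0.01 over all genes. Without PE-low replicate 1, the adjusted p was 4.35e-20 for Agt (-1.86), 2.44e-10 for Itih3 (-1.04), 0.00632 for Aqp4 (-0.46), 0.0245 for Gfap (-0.41), 0.0965 for Gja1 (-0.32) and 0.0985 for Aldh1a1 (-0.32), in a fit that called 6.71% of all genes. Without PE-low replicate 2, it was 0.00755 for Vim (-0.61) and 0.0928 for S100b (0.43), in a fit that called 1.99%, and the differences of Agt and Itih3 became -0.15 and -0.09.

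Agt also followed PE-low replicate 2 in classes that are not astrocytes. Oligodendrocyte-like nuclei gave 4.65 and 13.9 CPM with PE-low EVs and 5.06 and 1.38 CPM with PE-high EVs, and inhibitory neuron-like nuclei gave 2.97 and 5.51, and 1.08 and 0.868 CPM. Only 32 of 4424 oligodendrocyte-like nuclei had a UMI of Agt over all libraries, so their library values rest on few UMIs. In both classes the highest library was the one with the most Agt outside nuclei. The part of free RNA in these values was not tested. With free RNA subtracted by its estimated share, Agt in the astrocyte-like nuclei of the wider set was 29.6, 52.7, 9.89 and 5.92 CPM. The groups still did not overlap. The same subtraction changed the order for other members. S100b, interleaved before, became 56.2, 26.4, 0 and 6.29 CPM, without overlap. Gja1, without overlap before, became 215.5, 186, 212 and 159 CPM, with overlap. Subtracted levels depend on the estimated share and were not tested.

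In the other classes none of the members was called either. In the main set 9 pairs of a member and a class were tested over 6 classes, with a smallest adjusted p of 0.99963, and 1 pair had an unadjusted p under 0.05 (S100b in inhibitory neuron-like nuclei, log2 difference 0.75, SE 0.34). In the wider set 33 pairs were tested over 8 classes, with a smallest adjusted p of 0.876. Of all genes, 0% were called in these classes, save for excitatory neuron-like nuclei of the main set, where 0.00803% were. Without PE-low replicate 2, Gja1 in endothelial-like nuclei had a log2 difference of 1.37 (adjusted p = 0.0315), in a fit with 1 PE-low library that called 9.07% of all genes. Its levels there were 45.5 and 166 CPM with PE-low EVs and 120 and 112 CPM with PE-high EVs, where PE-low replicate 1 was the library whose endothelial nuclei clustered apart.

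The difference between the effect in astrocyte-like nuclei and in each other class was tested as a class by treatment term. None of 26 pairs in the main set and none of 65 pairs in the wider set passed, with smallest adjusted p of 0.625 and 0.762. The share of all genes called was 0.107% against excitatory neuron-like nuclei, 0.0379% against microglia-like nuclei and 0% against the rest in the main set, and 0.0422% against excitatory neuron-like nuclei and 0% against the rest in the wider set. The 2 smallest were Aldh1a1 against inhibitory neuron-like nuclei, with a difference of -2.45 (SE 0.72) in the main and -1.57 (SE 0.41) in the wider set. Aldh1a1 in inhibitory neuron-like nuclei of the wider set was 5.56 and 4.94 CPM with PE-low EVs and 7.03 and 9.54 CPM with PE-high EVs.

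The wider astrocyte programme was described through gene lists, none of whose genes was called in astrocyte-like nuclei or outside nuclei. Most of the 16 homeostatic genes also served to name the class. All were tested in the wider set, 14 had negative and 2 positive log2 differences, and the median was -0.12. In the main set 14 were tested and all were negative, with a median of -0.54 and a range of -1.23 to -0.18. Markers of other classes differed in both directions in those nuclei. The 6 general neuron markers were higher with PE-high EVs, at 2679 and 2156 CPM with PE-low EVs and 4086 and 3322 CPM with PE-high EVs. So were markers of oligodendrocyte precursors (253.5 and 191.5, and 633 and 389.8 CPM), excitatory neurons (899 and 828, and 1205 and 1151 CPM) and microglia (149.8 and 149.3, and 199 and 174 CPM). Markers of oligodendrocytes went the other way, at 726 and 967.5, and 534 and 522 CPM. Markers of choroid plexus (236 and 312, and 112 and 234 CPM), mural cells (127 and 149, and 49.7 and 120 CPM) and fibroblasts (51.9 and 39.0, and 37.3 and 24.0 CPM) were also lower with PE-high EVs. They rested on few UMIs: 41 and 96, and 9 and 39 for choroid plexus, 22 and 46, and 4 and 20 for mural cells. Fibroblast markers had 9 and 12, and 3 and 4 UMIs. For choroid plexus, PE-low replicate 1 and PE-high replicate 2 were nearly level. Markers of inhibitory neurons (1296 and 523, and 733 and 594 CPM) and striatal projection neurons (2046 and 1107, and 1875 and 1637 CPM) overlapped between the groups. The most neuron-rich main-set sub-cluster (5583 CPM of neuron markers) held 12% and 8.16% of the PE-low and 40.9% and 18.7% of the PE-high astrocyte-like nuclei. Another one, at 3670 CPM, held 20% and 5.10%, and 15.9% and 9.70%, which overlapped between the groups. The remaining ones stood at 877 and 1223 CPM. The part of these in the result was not tested. The summed level of the homeostatic genes in the wider set was 18210 and 21470 CPM with PE-low EVs and 17020 and 18750 CPM with PE-high EVs. Slc1a2 stood at 5794, 5915, 5349 and 5549 CPM in the same order. Endfoot and gap junction genes, Aqp4 and Gja1 among them, had 4 positive and 5 negative differences in the wider set and a median of -0.04.

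Of 7 genes of astrocytes outside the telencephalon, 3 were tested in the wider set and all 3 were lower in PE-high libraries with an unadjusted p under 0.05: Slc6a11, a GABA transporter, by -0.64, Sparc by -0.99 and Slc6a9, a glycine transporter, by -1.31 on the log2 scale. Slc6a11 stood at 214.5 and 394 CPM with PE-low EVs and at 169 and 217 CPM with PE-high EVs. Sparc stood at 68.7 and 198 CPM, and 69.6 and 62.1 CPM, with PE-low replicate 2 alone above the others, as for Aldh1a1. The summed list was 304, 635, 248 and 298 CPM.

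Reactivity lists were little detected. Of 13 pan-reactive genes, 3 were tested in the wider set with a median of -0.20, and the summed level was 95.1, 128, 96.7 and 103 CPM. Lcn2, a lipocalin induced in reactive astrocytes, had no UMI in any library. Of the intermediate filament genes 3 of 6 were tested, 1 positive and 2 negative. Of 12 complement genes 4 were tested, all positive, with a median of 0.50, and C4b among them at 0.0027. C1qa, which microglia make, was among their most abundant genes at 30.6, 16.7, 28.4 and 40.4 CPM, and C3 had no UMI. Microglia markers summed to 189 and 163.5 CPM with PE-low EVs and to 215.4 and 222 CPM with PE-high EVs in the same nuclei, and their part in the complement values was not tested.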

How the data were processed

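Nuclei of OCT-embedded brain sections were profiled with 10x Genomics 3′ v3.1 chemistry. The authors aligned reads with Cell Ranger 7.1.0 to mm10 and deposited unfiltered UMI counts per gene and barcode, with the gene and barcode names; the 2 name files hold no measurement. Whether intronic reads were counted is not given in the sources used here. Barcodes above a UMI cut set from the deepest barcodes of each library were called as nuclei. The cut was 573 and 839 UMIs in PE-low replicates 1 and 2, and 405.5 and 422 UMIs in PE-high replicates 1 and 2. A test of shallower barcodes against the near-empty profile (at least 500 UMIs tested, false discovery rate 0.01, 10000 simulations) added 358 and 949, and 0 and 0 nuclei. Called nuclei were filtered (200 to 2500 genes, at most 3% or 15% mitochondrial UMIs), clustered without the members (scanpy 1.11.5, leidenalg 0.10.2, resolution 0.8) and named from marker lists. Scrublet marked 0.100% to 0.892% of nuclei, under 0.5% in 3 of 4 libraries, so it was taken not to have worked and no nucleus was removed as a doublet.

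Counts were summed per class and library. Sums were tested with edgeR 4.0.16 (TMM, filterByExpr, quasi-likelihood test, Benjamini-Hochberg over all genes tested, threshold 0.1), with DESeq2 1.42.0 as an alternative. The edgeR fit was tested on simulated data, and the DESeq2 fit was not. Intervals of log2 differences were computed from the SE with a normal quantile, which is narrow at n = 2 per group. CPM intervals are exact Poisson intervals at 95% and cover counting error only; a gene without a UMI may be present at up to about 3 counts. The named genes were the 10 members, up to 4 abundant genes per list, and for each member the 3 most correlated genes. The members and the lists were chosen with earlier results of these data known. Some genes of the lists are not reported here.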

Additional observations from a re-analysis of the deposited data

How the results depend on the processing

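At an adjusted p under 0.1 no gene was called by edgeR in any of the 3 fits. Main astrocyte-like nuclei gave 1 gene with DESeq2, 9 with no filter on low counts and 1 to 56 with a library left out. Wider astrocyte-like nuclei gave 15 with no filter (Agt among them, adjusted p = 0.00292), 1 without nuclei carrying other classes' markers and 0 to 265 with a library left out. RNA outside nuclei gave 28 with DESeq2, 3 in barcodes of at most 100 UMIs and 0 to 1121 with a library left out, and the member and class pairs of the wider set gave 0 to 1. The largest counts of genes were those without PE-low replicate 1. Replicate numbers are in the labels, but same-numbered libraries deviated together only weakly (correlation 0.141, 0.0746 and 0.118 in the 3 fits, 2 pairs each), so they were not taken as paired. The replicate block called 83 of 3729, 49 of 10010 and 277 of 16523 genes in the 3 fits (edgeR). Among them were Aldh1a1 (-1.27, adjusted p = 0.0470) in the main set, and Agt (-1.95, 0.00416) and Aldh1a1 (-0.64, 0.0921) in the wider set. Outside nuclei they included Agt (-1.09, 1.61e-10) and Itih3 (-0.58, 0.00212). With a block, so few libraries leave almost no residual degrees of freedom, and these p values rest on the dispersion shared over genes.

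Log2 differences that changed sign, none of them past the threshold, were, in the main set, Aqp4 (0.012 at the 15% limit) and Itih3 (0.086 with DESeq2, 0.010 with no upper limit on genes); in the wider set, Gfap (0.13 without nuclei carrying other markers), C4b (-0.0091 with DESeq2, -0.0068 with RLE size factors, -0.0048 with no filter), Aqp4 (-0.24 thinned to 500 UMIs) and, without the sub-cluster of astrocytes outside the telencephalon, C4b (-0.11), S100b (0.030) and Itih3 (0.40); and outside nuclei Aqp4 (0.17 in barcodes of at most 100 UMIs). With a library left out, differences ranged in the main set from -0.69 to 3.07 (Itih3) and -2.18 to -0.10 (Aldh1a1). In the wider set they ranged from -0.57 to 0.23 (Gfap), -0.056 to 0.035 (C4b), -0.046 to 0.047 (Aqp4), -0.30 to 0.16 (S100b), -2.46 to -1.36 (Agt), -0.90 to 0.83 (Itih3) and -1.25 to -0.01 (Aldh1a1). Outside nuclei they ranged from -0.41 to 0.020 (Gfap), -0.61 to 0.070 (Vim), -0.057 to 0.18 (Serpina3n), -0.46 to -0.0056 (Aqp4), -0.32 to 0.019 (Gja1), -0.054 to 0.47 (S100b), -1.86 to -0.15 (Agt), -1.04 to -0.09 (Itih3) and -0.32 to -0.27 (Aldh1a1). The alternatives for the wider set were chosen after seeing the data. The cause of these changes was not tested. In the main set few nuclei limited the counts, with 44 astrocyte-like nuclei in PE-high replicate 1.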

Other observations

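Fkbp5, a glucocorticoid-induced chaperone counted in the A1-type reactive list, set one library apart within astrocyte-like nuclei. In the wider set it had 13 UMIs in PE-low replicate 1 and 168, 85 and 67 in PE-low replicate 2 and PE-high replicates 1 and 2, or 13.7 CPM against 187, 110 and 104 CPM. In the main set it had 2, 52, 13 and 25 UMIs. Cxcl10, an interferon-induced chemokine of the pan-reactive list, had 0 UMIs in PE-low replicate 1 and 11, 10 and 8 in the other 3, the same 3 libraries whose endothelial cluster was led by Cxcl10. PE-low replicate 1 was thus the lowest library for both genes, whereas PE-low replicate 2 was the highest for Agt and Aldh1a1.

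Outside nuclei, the 3 subunit genes of complement C1q, which microglia make, had positive log2 differences: 0.48 for C1qa (unadjusted p = 0.0129), 0.51 for C1qb (0.00386) and 0.42 for C1qc (0.00798), none of which passed the edgeR test once adjusted over all genes. Of the 9 complement genes tested there, 7 had positive and 2 negative differences, with a median of 0.27. The 11 A1-type genes had 7 positive and 4 negative (median 0.07), the 7 A2-type genes 5 and 2 (0.21), the 11 pan-reactive genes 5 and 6 (-0.12), the 16 homeostatic genes 3 and 13 (-0.19), the 9 endfoot genes 2 and 7 (-0.15), the 5 intermediate filament genes 0 and 5 (-0.22) and the 3 genes of astrocytes outside the telencephalon 0 and 3 (-0.44).

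The genes whose levels over 42 class and library sums were most like each member were as follows. Gfap went with the receptor gene Fzd2 (Pearson r = 0.855), Gm26671 and the connexin gene Gjb6, and C4b with Sardh (0.886), Tead3 and Itga7. Vim went with Rbpms (0.924), Ahnak and Tm4sf1, and Serpina3n, on few UMIs, with Gm26645 (0.881), Gm12963 and Sstr1. Aqp4 went with Heph (0.863), Gpr37l1 and Tprkb, Gja1 with Wwtr1 (0.869), Atp1b2 and Pdlim5, and S100b with Sox2 (0.781), Prmt1 and Necap1. Agt went with Itih3 (0.752), A330076C08Rik and Nat8f6, Itih3 with Acat3 (0.804), Paqr8 and Cyp4f15, and Aldh1a1 with Fgd6 (0.906), Ntsr2 (0.860) and Lama2 (0.843).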
